A study of Macaca fascicularis with 86 samples.

Results

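The regions compared here are laser-captured pieces of the embryonic disc of crab-eating macaque embryos at E18, set against each other by their level of TBXT, the T-box transcription factor of the primitive streak. The series holds 86 captured regions, of which 50 come from 2 embryos at E18 and the others from 1 embryo at E20. Each region is a pool of a few cells cut from a cryosection and sequenced from polyA RNA by Geo-seq, and the deposited values are TPM, a level normalised for transcript length and library size. The labels name every region by embryo, section and sector, and give no genotype or treatment, so no group differs from another by anything the experimenters applied. The classes were therefore chosen by readout. A region counted as disc when its mean log2(TPM + 1) over COL1A1, COL1A2, COL3A1, POSTN, LUM and DCN, matrix genes of mesenchyme, was below 3.5, which held for 32 E18 regions. Of these, 14 had a TBXT level of at least 10 TPM (TBXT-high), 9 had a level below 1 TPM (TBXT-low) and 9 lay between (intermediate) and were left out of the test. Embryo 1 gave 2 TBXT-high and 4 TBXT-low regions, and embryo 2 gave 12 and 5.

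In primate gastrulation, epiblast cells at the posterior edge of the disc lose their epithelial form at the primitive streak and leave it as mesoderm and definitive endoderm, while the front of the streak forms the node and its axial derivatives. TBXT is made in the streak, in nascent mesoderm and in the node and notochord, and acts with MIXL1, EOMES and the WNT, NODAL and FGF signals that maintain the streak. SOX2 marks the pluripotent epiblast and the neural ectoderm that follows from it.

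TBXT itself set the classes and is given only as a description. In the TBXT-high regions of embryo 1 it stood at 30.3 and 50.4 TPM, and in those of embryo 2 it ran from 10.6 through a median of 45.5 to 221 TPM. It was listed at 0 in 8 of the 9 TBXT-low regions and at 0.77 TPM in section 3 sector 2 of embryo 1. The thresholds cut through a graded series: the high regions nearest the limit had 10.6 and 11.02 TPM and the intermediate region nearest to them 7.24, while the lowest intermediate region had 1.02 TPM. The matrix score left a wider gap, from 3.29 in the highest disc region to 4.73 in the lowest matrix-rich one.

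The other marker genes given for these cells were not used by the rule. MIXL1, a homeobox factor of the streak, stood at 230 and 550.2 TPM in the TBXT-high regions of embryo 1 and ran from 13.04 through a median of 193 to 699 TPM in those of embryo 2. In the TBXT-low regions it was 0, 0, 0 and 5.10 TPM in embryo 1 and between 0 and 16.6 TPM in embryo 2. In 13 of the 14 TBXT-high regions MIXL1 was above every TBXT-low region, and the exception was section 6 sector 3 of embryo 2. The difference was 6.26 ± 0.60 (SE) on the log2(TPM + 1) scale, with an adjusted p of 3.0e-07 by limma with embryo as a block (14 against 9 regions).

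EOMES, a T-box factor needed for endoderm and early mesoderm, ran from 113 through a median of 291 to 562 TPM in the TBXT-high regions and from 2.63 through 16.3 to 134 TPM in the TBXT-low regions. It differed by 3.31 ± 0.37 (limma, adjusted p = 6.1e-06), and 13 of 14 TBXT-high regions lay above all TBXT-low regions. SOX2 went the other way. Its levels were 11.2 and 24.1 TPM in the TBXT-high regions of embryo 1 and 58.5 to 130.4 TPM in its TBXT-low regions. In embryo 2 they ran from 5.78 through a median of 43.1 to 126 TPM against 136 to 256 TPM, so that the classes did not overlap within either embryo. SOX2 fell by 2.30 ± 0.38 on the log2 scale (limma, adjusted p = 3.7e-04) and was detected in all 14 TBXT-high regions.

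**Figure D1:**
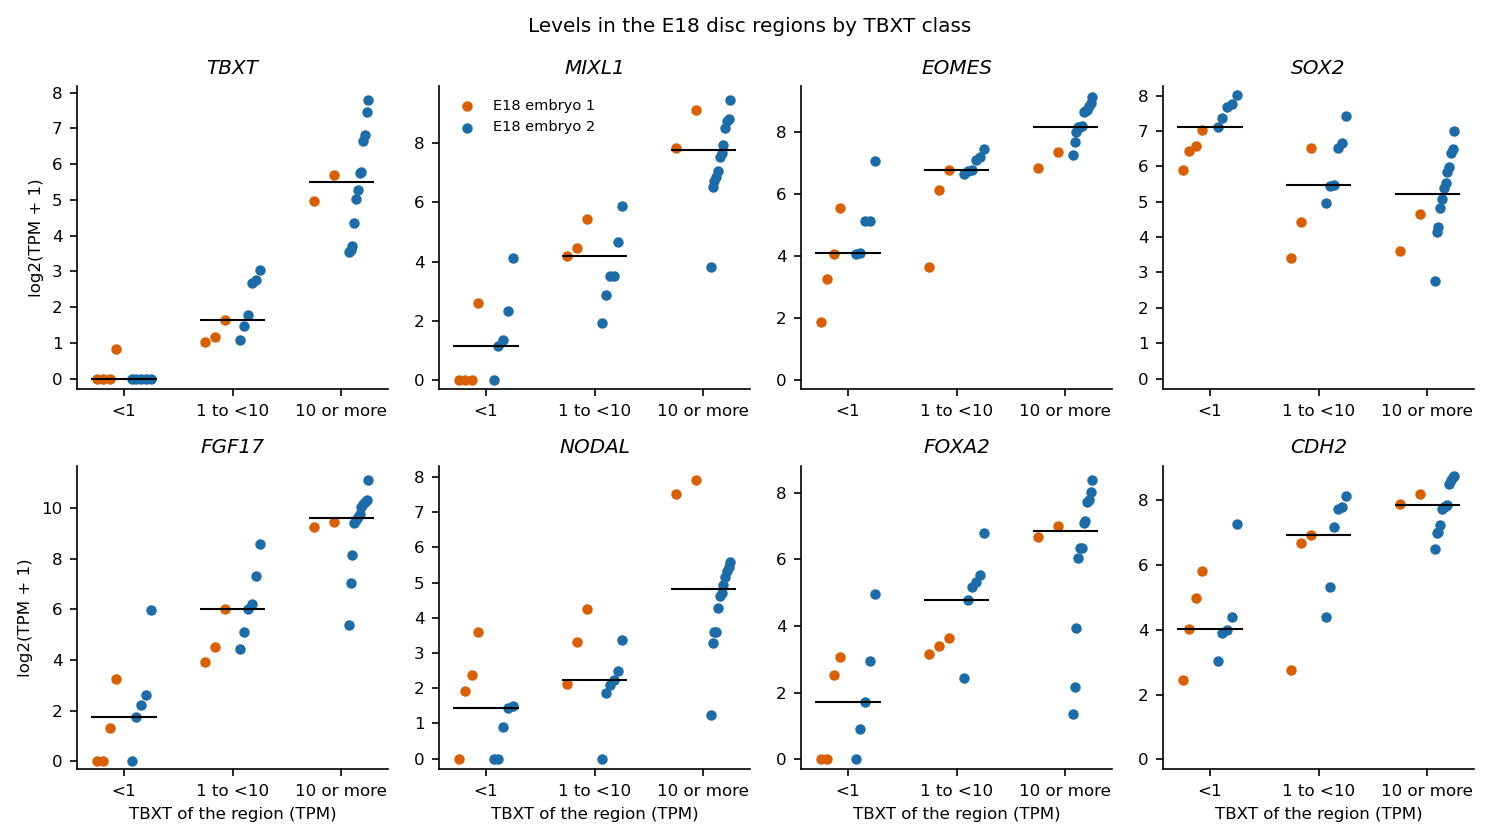
Levels of TBXT and 7 other genes in the 32 E18 disc regions, as log2(TPM + 1), by the TBXT class of the region. Each point is 1 region, coloured by embryo, and the bar is the median of the class. TBXT defined the classes. MIXL1, EOMES, FGF17, NODAL, FOXA2 and CDH2 have higher medians with more TBXT, and SOX2 has a lower one.

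Over all genes, 777 of the 15209 tested (5.11%) were higher in TBXT-high regions and 200 (1.32%) were lower, at an adjusted p below 0.05 (limma, embryo as a block). TBXT and the 6 matrix genes are not among them. Of the higher genes 775 had the same sign in both embryos, and of the lower ones 196. The calls come from the same 2 embryos, which favours a shared sign, so these counts are not a replication. The classes did not overlap at all for 15 of the 777 and 5 of the 200. Overlap was not counted over all 15209 genes, so nothing is read from these 2 counts. The p-values treat the regions of an embryo as separate samples, and only 2 embryos stand behind them. When each embryo contributed 1 mean per class, 338 genes were called, 274 of them higher. That fit leaves almost no residual degrees of freedom, so its calls lean on the variance that limma borrows from all genes. Without embryo 1 the count was 302, and without embryo 2 it was 197. The split between directions also depends on the scale: quantile normalisation, which moves the median difference of all genes from 0.15 to -0.026, gave 483 higher and 570 lower, and rescaling without the mitochondrially encoded genes gave 447 and 438. In a captured region, fewer cells of a type and less RNA per cell cannot be told apart. 

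Library quality moved with the classes in part. In embryo 1 the TBXT-high regions held 11088 ± 33 (SD, n = 2) detected genes and the TBXT-low regions 10387 ± 483 (n = 4), and in embryo 2 the numbers were 12428 ± 766 (n = 12) and 12383 ± 892 (n = 5). Mitochondrially encoded transcripts made up 10.8% ± 2.7 and 21.8% ± 12.99 of the summed TPM in embryo 1, and 28.2% ± 9.1 and 35.9% ± 12.98 in embryo 2. With the number of detected genes as a covariate, 918 genes were higher and 283 lower.

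**Figure D2:**
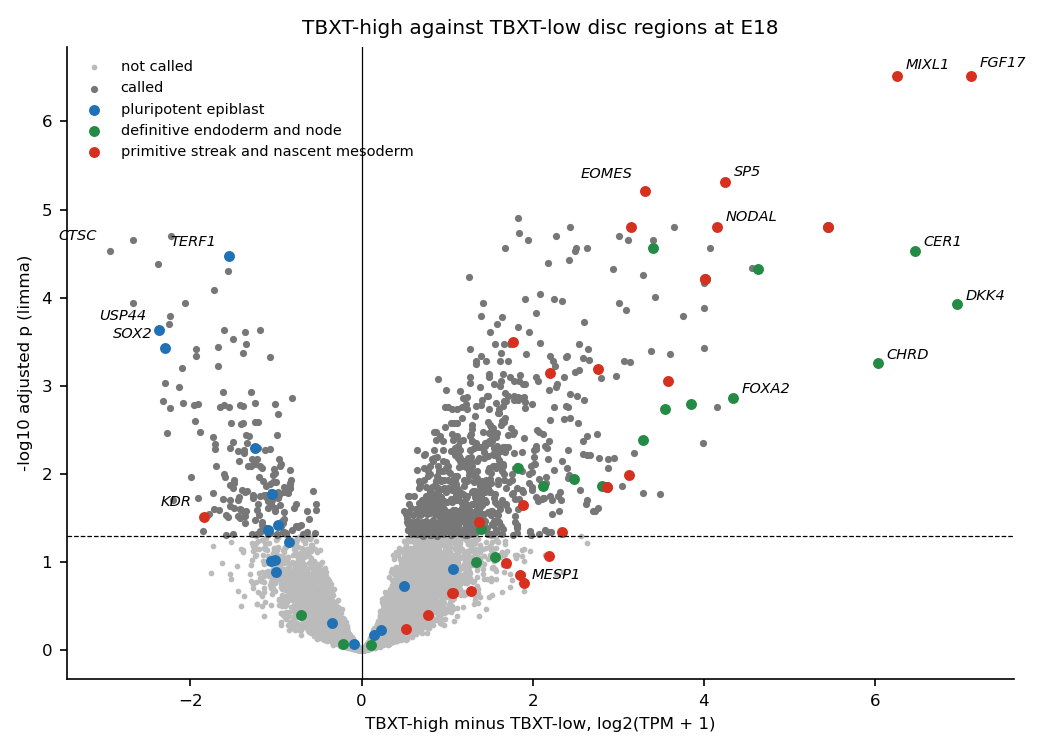
Difference between TBXT-high and TBXT-low regions, as log2(TPM + 1), against -log10 of the adjusted p from limma, for the 15209 genes tested. Grey points are all genes and coloured points the members of 3 lists; a gene in several lists takes the colour of the streak list, and the dashed line is an adjusted p of 0.05. FGF17 and MIXL1 lie at the upper right, and SOX2, TERF1, USP44 and CTSC at the left.

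The streak genes made up one of the groups with the most calls. Of 27 tested members of the list for the streak and nascent mesoderm, 17 rose and 1 fell, with a median difference of 2.21 against 0.15 over all genes. Here and below, counts of list members stand beside 5.11% higher and 1.32% lower over all genes. FGF17, an FGF ligand of the streak, had the largest difference of all genes called. It stood at 605 and 698 TPM in the TBXT-high regions of embryo 1 and ran from 40.3 through a median of 831 to 2210.3 TPM in embryo 2. In the TBXT-low regions its levels were 0 to 8.67 TPM in embryo 1 and 0 to 61.4 TPM in embryo 2. The highest of them was section 1 sector 2 of embryo 2, and the difference was 7.12 ± 0.67 (limma, adjusted p = 3.0e-07). SP5, a direct target of WNT signalling in many tissues, was the streak factor whose classes did not overlap, with 13.2 to 105 TPM in TBXT-high and 0 to 11.4 TPM in TBXT-low regions (4.25 ± 0.47). LHX1, a LIM homeobox factor of the streak and node, rose by 5.45 ± 0.67, GSC, a homeobox factor of the anterior streak, by 4.02 ± 0.57 and SNAI1, which represses epithelial genes in cells leaving the streak, by 2.21 ± 0.39. APLNR, the receptor for apelin in early mesoderm, rose by 3.58 ± 0.64 and was chosen for mention after its value was seen.

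Factors of the mesoderm that leaves the streak were less uniform. MESP1 differed by 1.89 ± 0.81 (limma, adjusted p = 0.17) and TBX6 by 1.85 ± 0.74 (adjusted p = 0.14), and neither passed the main test. With means per section and class both passed in limma (adjusted p = 0.020 and 0.035). MESP1 also passed without section 5 of embryo 2 (0.041). TBX6 also passed with a TBXT limit of 20 TPM (8.3e-03) and on a slope on log2(TBXT + 1) (3.9e-03). Neither passed in the other alternatives. MSGN1, a paraxial mesoderm factor, was listed at 0 in all 9 TBXT-low regions and in 4 of the 14 TBXT-high ones, among them both of embryo 1, and reached 95.2 TPM in section 3 sector 1 of embryo 2. It was called at an adjusted p of 0.045, but leaving out a single region ended the call for 14 of the 23 regions, with adjusted p up to 0.10. EVX1, a homeobox factor of the posterior streak, rose by 3.13 ± 0.75 (limma, adjusted p = 0.010, and 0.058 without section 4 of embryo 1, which holds both TBXT-high regions of that embryo). CDX2, of the posterior body and the amnion, differed by 1.69 ± 0.62 without passing the main test (adjusted p = 0.10). In limma it passed with means per section and class (adjusted p = 0.017) and with a TBXT limit of 20 TPM (0.044). A slope on log2(TBXT + 1) also passed (0.0497), as did the fit without section 5 sector 3 of embryo 2 (0.048), but no other alternative did. KDR, the VEGF receptor of early blood and endothelium, was the member of the list that fell, by 1.84 ± 0.52 (adjusted p = 0.030). It stood at 9.00 to 17.2 TPM in the TBXT-low regions and at a median of 1.93 TPM in the TBXT-high ones, with a highest value of 43.9. Its call was lost without section 4 sector 1 or sector 2 of embryo 1, section 1 sector 1 or section 2 sector 1 of embryo 2, with adjusted p up to 0.089, and without the whole of section 4 of embryo 1 the adjusted p was 0.29.

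Among the signals, the NODAL pathway had 6 of 16 members higher and 0 lower, beside 5.11% and 1.32% over all genes. NODAL, the TGF-beta family ligand that induces the streak, stood at 182 and 242 TPM in the TBXT-high regions of embryo 1 and ran from 1.37 through a median of 24.5 to 47.4 TPM in embryo 2. The TBXT-low regions had 0 to 11 TPM in embryo 1 and 0 to 1.80 TPM in embryo 2. The classes did not overlap in embryo 1, and in embryo 2 only section 4 sector 3 fell among the TBXT-low values. NODAL rose by 4.15 ± 0.51 (limma, adjusted p = 1.6e-05). CER1, a secreted antagonist of NODAL, BMP and WNT, rose by 6.47 ± 0.86, from 0 to 26.3 TPM in TBXT-low to 2.61 to 1638 TPM in TBXT-high regions. FOXH1, the transcriptional partner of activated SMADs, rose by 1.61 ± 0.31 and SMAD3 by 1.33 ± 0.32, the latter with an adjusted p of 0.20 without section 4 of embryo 1.

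The WNT pathway had 11 of 39 members higher and 0 lower, and after quantile normalisation 9 higher and 2 lower. WNT3, the ligand that starts the streak in mammals, had 18.7 and 31.5 TPM in the TBXT-high regions of embryo 1 and 14.4 to 109 TPM in those of embryo 2. In the TBXT-low regions it stayed between 0.13 and 2.99 TPM except in section 1 sector 2 of embryo 2, with 21.9 TPM, and the difference was 3.15 ± 0.39 (limma, adjusted p = 1.6e-05). WNT3A differed by 1.06 ± 0.50 and did not pass the main test (adjusted p = 0.22). It passed in limma with a TBXT limit of 20 TPM (adjusted p = 0.020) and against all other disc regions (0.043). A slope on log2(TBXT + 1) also passed (4.0e-03), but no other alternative did. The secreted antagonists DKK4 and DKK1 rose by 6.96 ± 1.04 and 4.64 ± 0.64. DKK4 did not overlap between the classes: it was listed at 0 in 8 of 9 TBXT-low regions, reached 2.48 TPM in the other, and ran from 2.71 to 1902 TPM in the TBXT-high regions. RSPO3, which strengthens WNT signals at the receptor, rose by 3.49 ± 0.90 (adjusted p = 0.017), a call lost without section 4 sector 2 of embryo 1 or section 6 sector 1 of embryo 2 (adjusted p up to 0.058).

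The FGF pathway had 8 of 25 members higher and 0 lower, and after quantile normalisation 6 and 2. Beside FGF17, the ligands FGF8 and FGF4 rose by 2.77 ± 0.48 and 2.87 ± 0.72 (adjusted p for FGF4 0.014, and 0.062 without section 4 of embryo 1), and FGF8 was listed at 0 in 5 of 9 TBXT-low regions. DUSP6, a phosphatase induced by FGF signals that acts back on ERK, rose by 2.29 ± 0.42, from 0.77 to 50.4 TPM in TBXT-low to 39.8 to 336 TPM in TBXT-high regions. The BMP pathway had 3 of 22 members higher (CHRD, BMP2 and BMP7) and 0 lower, with 2 in each direction after quantile normalisation. CHRD is also a member of the endoderm and node list. The BMP2 ligand differed by 3.29 ± 0.84 (adjusted p = 0.016) and had an adjusted p of 0.17 without section 4 of embryo 1, and the call of BMP7 ended without section 4 sector 1 of embryo 1 or sections 1 sector 1, 2 sector 1 or 3 sector 2 of embryo 2 (adjusted p up to 0.11). Of the Notch pathway 5 of 19 rose and 0 fell, and after quantile normalisation 3 and 1. LFNG, which modifies the receptor, rose by 1.65 ± 0.38 (adjusted p = 8.2e-03, and 0.082 without that section). The call of the ligand DLL1 ended for 17 of the 23 regions left out in turn (adjusted p up to 0.13), that of the ligand DLL3 for 4 (up to 0.079) and that of the target HES1 for 3 (up to 0.097). Of the retinoic acid list 2 of 15 rose, among them CRABP2, a retinoic acid binding protein, whose call ended for 15 of the 23 (adjusted p up to 0.11). The few calls in the BMP and retinoic acid lists are given as counts only, beside 5.11% higher and 1.32% lower over all genes.

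Genes of the definitive endoderm and node had the largest share of calls. Of 21 tested members 16 rose and 0 fell, with a median difference of 3.29, and LHX1 and GSC stand in the streak list as well. FOXA2, a forkhead factor of endoderm, node and notochord, had 101 and 128 TPM in the TBXT-high regions of embryo 1 and ran from 1.56 through a median of 108 to 335 TPM in embryo 2, against 0 to 30.1 TPM in the TBXT-low regions. It rose by 4.34 ± 0.82 (limma, adjusted p = 1.4e-03). CHRD, the BMP antagonist of the node, ran from 1.58 through a median of 164 to 2557 TPM against 0 to 7.19 TPM and rose by 6.04 ± 1.04 (adjusted p = 5.5e-04). For both genes 11 of 14 TBXT-high regions lay above all TBXT-low regions, and the remaining 3 lay among them. SOX17, an endoderm factor, rose by 3.29 ± 0.70 and CXCR4, a chemokine receptor of migrating endoderm and mesoderm, by 3.85 ± 0.74, with adjusted p of 0.098 and 0.060 without section 4 of embryo 1.

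Of 18 tested members of the epiblast list, which holds pluripotency genes, 7 fell and 1, FGF4, rose. The median was -0.99, 10 fell after quantile normalisation, and within sections 0 were called. TERF1, a telomere-binding protein abundant in pluripotent cells, stood at 153 TPM in both TBXT-high regions of embryo 1 against 429 to 777 TPM in its TBXT-low ones, and at 112 to 360.0 against 305 to 723 TPM in embryo 2 (-1.55 ± 0.21, adjusted p = 3.4e-05). The de novo methyltransferase DNMT3B fell by 1.25 ± 0.27 (adjusted p = 5.1e-03, and 0.12 without section 4 of embryo 1). NANOG differed by -1.06 ± 0.38 and did not pass the main test (adjusted p = 0.097). In limma it did after quantile normalisation (adjusted p = 0.038) and after rescaling without mitochondrially encoded genes (0.029). It also passed without section 2 sector 3 (0.024) or the whole of section 2 (0.045) of embryo 2. Of 11 neural and anterior genes 1 was called lower, and their median was 0.03. OTX2, which marks the anterior epiblast and also the anterior streak and endoderm, differed by 1.34 ± 0.48 without passing the main test (adjusted p = 0.10). In limma it passed without section 2 sector 3 (adjusted p = 0.017) or section 3 sector 1 (0.031) of embryo 2. Leaving out the whole of section 2 (0.032) or section 3 (0.046) of embryo 2 also gave a call. OTX2 passed as well with means per embryo and class (0.018) and without embryo 2 (0.039). It lay above all TBXT-low regions in 12 TBXT-high regions and below all of them in the other 2.

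The lower genes with the largest differences included several that are not in a pathway list. CTSC, a lysosomal protease, had 9.78 and 15.6 TPM in the TBXT-high regions of embryo 1 and 1.86 to 27.5 TPM in those of embryo 2, against 39.7 to 227 and 23.5 to 118 TPM in the TBXT-low regions (-2.94 ± 0.39, adjusted p = 2.9e-05). The 5 genes that were lower without overlap were MMP17, a membrane-bound metalloprotease (-2.67 ± 0.34), GDPD2, a glycerophosphodiester phosphodiesterase (-2.37 ± 0.33), ITGA7, a laminin-binding integrin (-2.23 ± 0.28), SLC39A10, a zinc transporter (-1.19 ± 0.19), and ANAPC4, a subunit of the anaphase-promoting complex (-1.07 ± 0.18). ITGA7, SLC39A10 and ANAPC4 were chosen for mention after their values were seen. CDH6, a type II cadherin, fell by 2.68 ± 0.40 and USP44, a deubiquitinase that is high in stem cells, by 2.37 ± 0.37.

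Genes of the mesenchymal transition rose in 10 of 22 cases and fell in 0, with a median of 1.11. CDH2, the cadherin of cells that have left the epithelium, had 234 and 294 TPM in the TBXT-high regions of embryo 1 and 90.1 to 429 TPM in embryo 2, against 4.43 to 55.4 and 7.22 to 152 TPM in the TBXT-low regions (3.41 ± 0.44, adjusted p = 2.2e-05). HAS2, which makes hyaluronan, rose by 4.01 ± 0.57, but section 1 sector 2 of embryo 2 had 230.1 TPM among the TBXT-low regions and 12 TBXT-high regions lay below it. FN1, fibronectin, rose by 4.15 ± 0.81 (adjusted p = 1.7e-03, and 0.060 without section 4 of embryo 1). The epithelial cadherin CDH1 differed by -0.70 ± 0.35 without passing (adjusted p = 0.24), and SNAI2 by 0.52 ± 0.46 (adjusted p = 0.57). Of 20 epithelial genes 2 rose and 2 fell, and their median of 0.18 turned to -0.04 after quantile normalisation.

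Of 32 genes of guidance and migration 11 rose and 2 fell. EPHA4, an ephrin receptor tyrosine kinase, stood at 12.03 to 107 TPM in TBXT-high and 0.78 to 25.02 TPM in TBXT-low regions (3.65 ± 0.45, adjusted p = 1.6e-05), and the semaphorin receptor PLXNA2 rose by 2.94 ± 0.41. The ligand SEMA3A fell by 2.09 ± 0.40 (adjusted p = 1.6e-03, and 0.054 without section 4 of embryo 1). CXCL12, the ligand of CXCR4, fell by 1.39 ± 0.35 (adjusted p = 0.015, and 0.052 without section 1 sector 1 of embryo 2). For 31 HOX genes, 17 genes of G2 and M phase, 57 ribosomal protein genes and 13 mitochondrially encoded genes the count of calls was 0 in each list. Over all genes 5.11% were higher and 1.32% lower, so that few calls go with lists of these sizes and nothing is read from these counts. Of the 18 S phase genes 2, RRM1 and SLBP, were called higher and 0 lower, and after quantile normalisation 0 were called. The call of RRM1 ended for 7 of the 23 regions left out in turn and that of SLBP for 5 (adjusted p up to 0.11 for each). Of the 19 genes of glycolysis and hypoxia 4 rose and 0 fell, among them ADM, a peptide hormone induced by low oxygen (2.34 ± 0.53, adjusted p = 7.1e-03, and 0.21 without section 4 of embryo 1). The others were NDRG1, BNIP3 and SLC16A3, with adjusted p of 0.11, 0.079 and 0.079 in limma without that section. BNIP3 (1.23 ± 0.28) was also called with section as a block (limma, adjusted p = 0.040). Of 13 immediate early and heat shock genes 2 rose, and 1 after quantile normalisation.

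**Figure D3:**
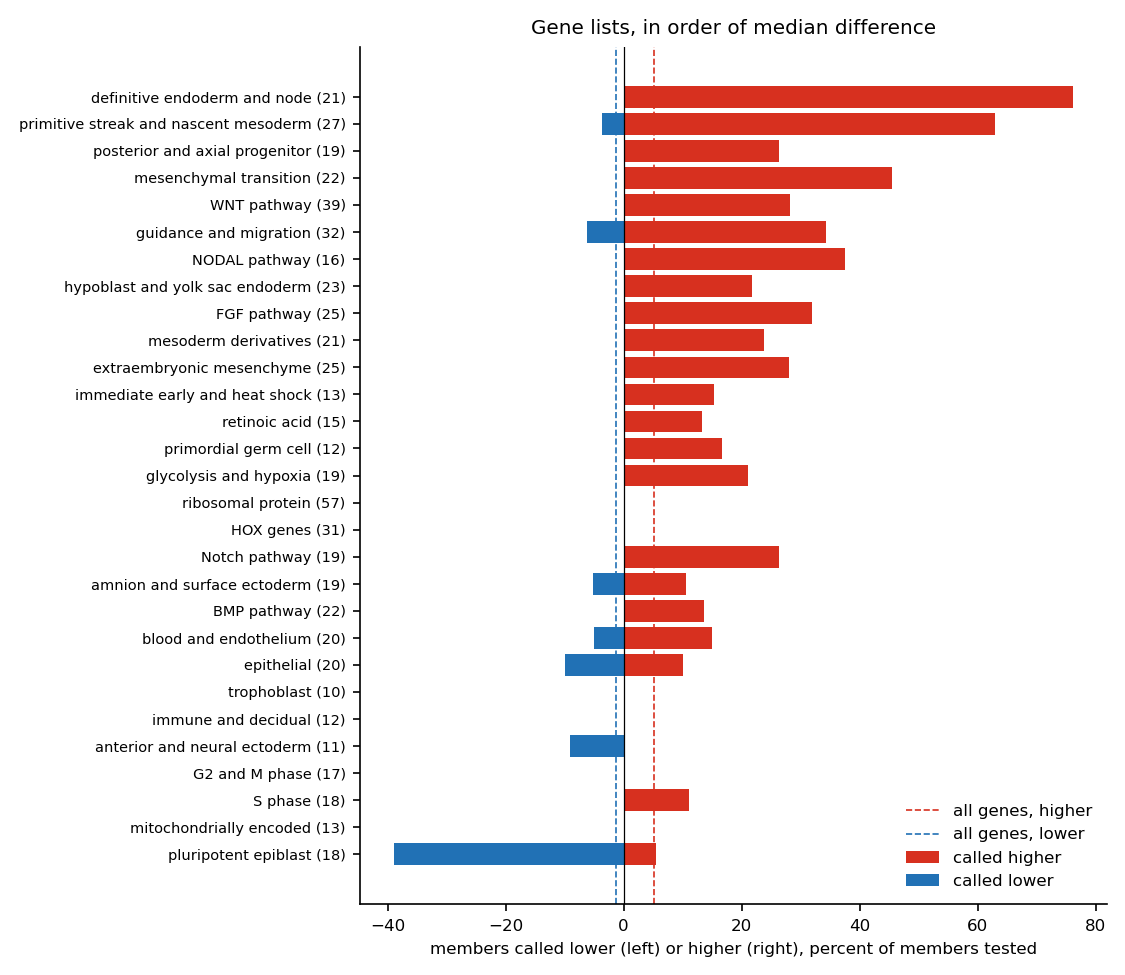
Share of tested members called higher (right) or lower (left) in TBXT-high regions for each of 29 gene lists, in order of median difference, with the number tested in brackets. Dashed lines are the shares over all genes, 5.11% and 1.32%. The endoderm and node list (16 of 21) and the streak list (17 of 27) have the longest bars to the right, and the epiblast list (7 of 18) the longest to the left.

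Markers of other cell types that a captured region can hold also moved in part, and their share in the results above was not tested. The counts below stand beside 5.11% higher and 1.32% lower over all genes. Of the 23 hypoblast and yolk sac genes 5 rose (GATA6, SOX17, TTR, GATA4 and PDGFRA) and 2 did after quantile normalisation. The list's summed level was 235 to 5715 TPM in TBXT-high and 189 to 1440.3 TPM in TBXT-low regions. The highest sum goes with APOA1, an apolipoprotein of yolk sac and liver, at 3436 TPM in section 4 sector 2 of embryo 1, where TTR stood at 263 TPM. The call of TTR ended without that region (adjusted p = 0.15), and did so for 14 of the 23 regions left out in turn, as that of PDGFRA did for 9 (adjusted p up to 0.12). APOA1 was chosen for mention after its value was seen, as were AFP, HBZ, NANOS3, CGA, PTPRC and, further on, HAND1. It differed by 2.35 ± 0.91 without passing (adjusted p = 0.13). AFP, a yolk sac and liver protein, did not exceed 6.17 TPM in any of the 23 regions. Of 19 amnion and surface ectoderm genes 2 rose and 1 fell, with sums of 143 to 852 against 174 to 756 TPM. Neither ISL1 (1.13 ± 0.42, adjusted p = 0.11) nor TFAP2A (-0.48 ± 0.39, adjusted p = 0.54), factors of the amnion, passed the main test. ISL1 did in limma without section 1 sector 2 (adjusted p = 0.011), the whole of section 1 (0.015) or section 5 sector 3 (0.043) of embryo 2. It also passed with detected genes as a covariate (0.049) and with means per section and class (0.030).

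Of the 25 genes of extraembryonic mesenchyme 7 rose and 0 fell, FN1, GATA6 and VIM among them, with sums of 189 to 2031 TPM in TBXT-high and 136 to 853 TPM in TBXT-low regions. Of 20 blood and endothelial genes 3 rose and 1 fell (sums of 70.4 to 315 against 38.4 to 109 TPM), and HBZ, an embryonic globin, was listed at 0 in 12 of 14 TBXT-high and in all 9 TBXT-low regions. Of 12 germ cell genes 2 rose, both also endoderm or streak factors (SOX17 and PRDM1), with sums of 53.0 to 530.1 against 65.9 to 273 TPM, and NANOS3 was listed at 0 in all 9 TBXT-low and in 11 TBXT-high regions. Of 10 trophoblast and 12 immune genes 0 were called, and with so few genes tested nothing is read from that count. Their sums were 24.3 to 806 against 18.02 to 171 TPM and 4.93 to 111 against 8.94 to 72.2 TPM. The highest trophoblast sum goes with CGA, a placental hormone subunit, at 725 TPM in section 4 sector 1 of embryo 1. PTPRC, the pan-leukocyte marker, did not exceed 1.28 TPM. None of these marker lists had a member at 0 in all 23 regions.

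The 14 TBXT-high regions were not alike, and the levels of mesoderm and node genes separated them in different ways. Section 5 sectors 6 and 7 of embryo 2 had the highest TBXT (173 and 221 TPM) together with MESP1 at 139 and 88.2 TPM, TBX6 at 68.2 and 57.3 TPM and RSPO3 at 411 and 362 TPM. FOXA2 there was 64.9 and 14.4 TPM and CHRD 130.3 and 22.5 TPM. Section 2 sector 3 and section 3 sector 1 of embryo 2, with TBXT at 99.2 and 111 TPM, had MSGN1 at 19.4 and 95.2 TPM but FOXA2 at 1.56 and 3.52 TPM and CHRD at 1.58 and 3.94 TPM, inside the TBXT-low range. DKK4 in these 2 regions was 2.71 and 7.52 TPM, against 1371 and 1054 TPM in section 5 sectors 6 and 7. They are also the regions in which OTX2 was lowest, at 20.6 and 27.9 TPM.

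Section 5 sectors 1, 2 and 3 and section 6 sector 3 of embryo 2, with TBXT between 11.02 and 38.02 TPM, had FOXA2 between 135 and 262 TPM and CHRD between 118 and 2557 TPM, while MESP1 did not exceed 4.43 TPM and TBX6 did not exceed 3.87 TPM. In the TBXT-high regions of embryo 1 FOXA2 was 101 and 128 TPM, CHRD 144 and 408 TPM, MESP1 0.58 and 0 TPM and TBX6 0 and 6.73 TPM. The CHRD level of section 5 sector 6 of embryo 2, which has high TBXT, lies within the range of the 4 regions with less TBXT, so CHRD does not divide the regions by their TBXT. Section 6 sector 6 of embryo 2 carried both sets, with the highest FGF17 (2210.3 TPM), FOXA2 (335 TPM) and DKK4 (1902 TPM) of the 14 and TBX6 at 31.8 TPM. Section 6 sectors 4 and 5 lay between, with MESP1 at 30.1 and 44.3 TPM and FOXA2 at 80.3 and 141 TPM. Section 4 sector 3, the region with the lowest TBXT of the 14 (10.6 TPM), had FOXA2 at 80.4 TPM beside CHRD at 7.08 and DKK4 at 6.74 TPM, MESP1 at 17.6 TPM and MSGN1 at 5.35 TPM. Its mean level over the posterior and axial progenitor list was 3.5 on the log2(TPM + 1) scale, against 2.29 to 2.52 in section 5 sectors 1, 2 and 3 and section 6 sector 3. MIXL1 stood at 89.7, 104, 186 and 13.04 TPM in those 4 regions, against 450 and 699 TPM in section 5 sectors 6 and 7 and 131 and 201 TPM in section 2 sector 3 and section 3 sector 1. EOMES stood at 152 to 286 TPM in the same 4 regions, and at 418 and 489 TPM in section 5 sectors 6 and 7. These levels are a description of single regions, and no test was made between them.

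**Figure D4:**
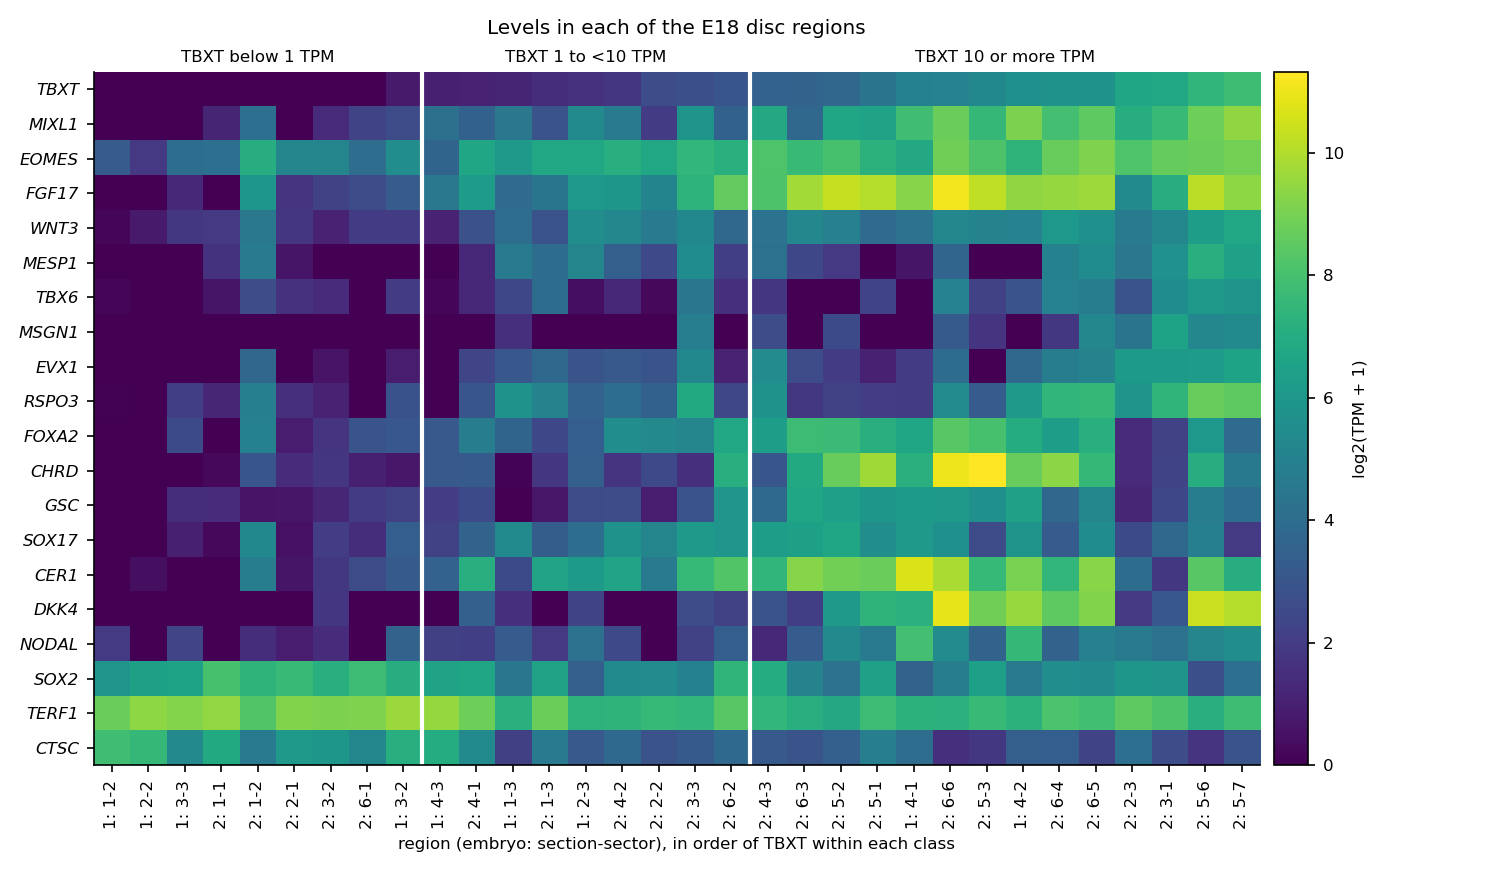
Levels of 20 genes in each of the 32 E18 disc regions, as log2(TPM + 1), in order of TBXT within the low, intermediate and high classes, which white lines separate. Columns are labelled by embryo, section and sector. Among the high regions, 2-3 and 3-1 of embryo 2 have low FOXA2, CHRD and DKK4 beside MSGN1 at 19.4 and 95.2 TPM, and region 1-2 of embryo 2 stands out among the low ones.

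Among the TBXT-low regions, section 1 sector 2 of embryo 2 stood apart. TBXT was listed at 0 there, yet EOMES was 134 TPM, FOXA2 30.1, SOX17 38.1, HAND1, a factor of lateral and extraembryonic mesoderm, 59.6 and VIM 144 TPM, each the highest of the 9, with SOX2 at 163 TPM. Without this region 1146 genes were called higher instead of 777, and 304 lower instead of 200. Section 3 sector 2 of embryo 1 had the next highest EOMES (45.9 TPM) and MIXL1 at 5.10 TPM. In the 9 intermediate regions, which the test did not use, MIXL1 ran from 2.86 through a median of 17.2 to 57.6 TPM, EOMES from 11.5 through 109 to 177 TPM and SOX2 from 9.62 through 43.0 to 171 TPM. FGF17 had a median of 63.4 TPM there and CHRD of 4.60 TPM. These medians lie between those of the TBXT-low and TBXT-high regions, though that of SOX2 is close to the 36.8 TPM of the TBXT-high regions. With these regions in the fit as a class of their own, the contrast gave 859 higher and 216 lower genes.

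Class and section are linked in this material. Both TBXT-high regions of embryo 1 lie in section 4 and all its TBXT-low regions in sections 1, 2 and 3, so class and section cannot be told apart in that embryo. Sections 2, 3 and 6 of embryo 2 hold both classes, and only they inform a fit with the section as a block. Their TBXT-low regions are section 2 sector 1, section 3 sector 2 and section 6 sector 1. Section 2 sector 3 and section 3 sector 1, where FOXA2 and CHRD lay in the TBXT-low range, are among their TBXT-high regions. With the section as a block, 109 genes were called higher (0.717%) and 7 lower (0.046%), 116 in all against 977 across the disc, and 95 of the 977 were called again with the same sign. MIXL1 (5.89 ± 1.03, adjusted p = 0.014), EOMES (3.83 ± 0.56, adjusted p = 6.4e-03), SP5 (5.48 ± 0.67, adjusted p = 3.4e-03), FGF17, NODAL, WNT3, LHX1, CDH2, EPHA4 and HAS2 passed in limma within sections. FOXA2 differed by 2.25 (adjusted p = 0.28), CHRD by 3.54 (0.23), CER1 by 3.79 (0.11), DKK4 by 4.30 (0.18) and SOX2 by -1.95 (0.14), and none of these passed. Of the streak list 9 members passed within sections, and of the endoderm and node list 1, LHX1. Whether the lists differ in this was not tested. Of the 82 called genes chosen by the naming rule, 13 passed within sections.

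**Figure D5:**
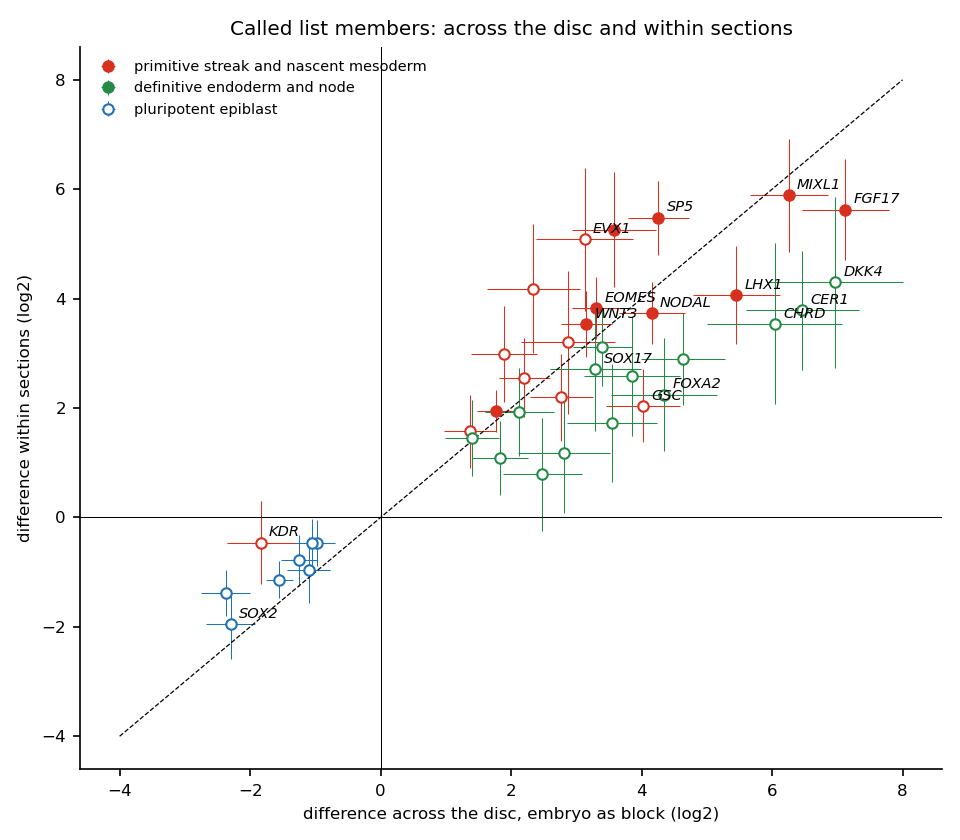
Difference across the disc with embryo as a block (x axis) against the difference within sections (y axis), both as log2(TPM + 1) with SE bars, for called members of 3 lists. Filled points were also called within sections, and the dashed line marks equal values. A gene in several lists is drawn with the streak list, as is LHX1, which is also in the endoderm and node list. The filled points, drawn in this way, are genes of the streak list such as MIXL1, SP5 and EOMES, while FOXA2, CHRD, CER1 and DKK4 are open.

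The contrast was also compared between the embryos. The difference between the embryos was called for 21 genes (0.138% of those tested, with 1090 at an unadjusted p below 0.05), and 3 of them were called in the main contrast: USP44, CTSE and FTHL17. USP44 fell by 4.81 in embryo 1 and by 1.45 in embryo 2 (difference 3.36, limma, adjusted p = 2.8e-03). CTSE, an aspartic protease, was 5.64 higher in embryo 1 and 0.57 in embryo 2, and FTHL17, a ferritin heavy chain relative, 4.74 and 0.32. KHDC1L and DPPA3, genes of the germ line and early embryo, were 6.35 and 5.16 higher in the TBXT-high regions of embryo 1 and differed by 0.22 and -0.50 in embryo 2, without passing in the main contrast. DPPA3 stood at 89.6 and 341 TPM in the TBXT-high regions of embryo 1 and was listed at 0 in 10 of the 14 TBXT-high regions. CTSE, FTHL17, KHDC1L and DPPA3 were chosen for mention after their values were seen. Since embryo 1 has 2 such regions from 1 section, and the count was 5 with a pseudocount of 0.1 in place of 1, these differences rest on few values.

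TBXT of at least 10 TPM was also found outside the disc, in 5 matrix-rich regions of embryo 2, with 11.3 to 30.6 TPM, but in 0 matrix-rich regions of embryo 1. Compared with the 4 TBXT-low matrix-rich regions of embryo 2, limma called 0 genes (0%), with 508 at an unadjusted p below 0.05. MIXL1 ran from 3.17 to 81.8 TPM in the matrix-rich regions with TBXT and from 0 to 3.51 TPM in those without (2.86 ± 0.88 by limma, adjusted p of 1). EOMES had 6.88 to 114 against 0.31 to 21.6 TPM, CDX2 3.55 to 57.3 against 0 to 3.61 TPM, and NODAL 0 to 6.00 against 0.72 to 3.86 TPM. SOX2 was 0 to 19.9 against 0.41 to 19.4 TPM. The difference between the disc contrast and the matrix-rich contrast passed for 0 genes (0%), with 1335 at an unadjusted p below 0.05. For no gene, then, was the TBXT contrast shown to differ between disc and matrix-rich regions. Levels in the disc were not compared with levels in matrix-rich regions.

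The E20 embryo gave regions that the E18 classes did not use. By the same rule 4 of its regions were disc, 2 TBXT-high (19.8 and 63.9 TPM), 1 intermediate and 1 TBXT-low (0.56 TPM), so there is no replicate of the low class and no test. Across all genes 11.2% were at least 1 log2 unit higher in the E20 TBXT-high regions and 10.1% at least 1 lower. Of the 777 genes called higher at E18, 415 (53.4%) were at least 1 higher and 8 (1.03%) at least 1 lower, and of the 200 called lower, 103 (51.5%) were at least 1 lower and 0 at least 1 higher. MIXL1 stood at 333 and 933 TPM against 13.5 TPM, EOMES at 150.02 and 504.5 against 30.8 TPM and SOX2 at 11.7 and 14.2 against 49.8 TPM. The 2 TBXT-high E20 regions also differed from each other. The region with 63.9 TPM of TBXT had MESP1 at 98.8 and RSPO3 at 449.9 TPM with CHRD at 1.38 TPM, and the one with 19.8 TPM had MESP1 at 0.30, RSPO3 at 17.2 and CHRD at 408 TPM. FOXA2 was 44.0 and 100.2 TPM in these regions.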

How the data were processed

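The authors deposited 1 table of TPM values for 17023 genes in 86 captured regions; per the submitters' processing notes the tools include fastp, HISAT2 and StringTie, with no versions, and the genome build is not given in the sources used here. TPM keeps no counts, so the depth of each region is unknown and no counting interval is given. Columns sum to between 495547 and 777987 TPM, and ACTB and GAPDH were above 0 in every region. Values were taken as log2(TPM + 1), and genes of at least 1 TPM in at least 10 regions were tested with limma 3.58.1 in R 4.3.3 (trend, Benjamini-Hochberg at 0.05 over all genes), with embryo as a block and 20 residual degrees of freedom. Differences are TBXT-high minus TBXT-low and understate the change of low genes. Alternatives changed the scale, filter, thresholds, block and the regions included. Named were called genes of the same sign in both embryos and at least 5 TPM on average in the higher class: the 12 largest in each direction, up to 5 in each list and direction, and a panel of 24 genes whatever their result. The thresholds, members and lists were chosen with earlier results of these data known.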

Additional observations from a re-analysis of the deposited data

Results flagged for a closer look

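In the TBXT-low regions, 48 groups of values (24 panel genes in 2 embryos) were searched for a region far from the others, and 8 stood out. Where the other regions were all at 0, as for MIXL1, CHRD and SNAI2 in embryo 1, any value above 0 stands out. Several flags also fall in the same region, so how many chance alone would give is not known. Section 3 sector 2 of embryo 1 had MIXL1 at 5.10 TPM where the other 3 regions had 0, TBX6 at 3.02 TPM against at most 0.14, CHRD at 0.66 TPM against 0, and FGF8 at 11.3 TPM against at most 0.14. It is also the TBXT-low region with a TBXT value above 0. Section 3 sector 3 of embryo 1 had SNAI2 at 0.49 TPM against 0, and ISL1 at 0 against 1.33 to 1.66 TPM. Section 1 sector 2 of embryo 2 had WNT3 at 21.9 TPM against at most 2.97, and ISL1 at 11.3 TPM against at most 1.44.

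USP44 differed between the embryos under the TBXT contrast by 3.36 on the log2 scale, with a fall of 4.81 in embryo 1 and of 1.45 in embryo 2 (limma, adjusted p = 2.8e-03). It had 2.22 and 4.35 TPM in the TBXT-high regions of embryo 1.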

How the results depend on the processing

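No paired analysis was possible because the replicate numbers only name regions in order; the section labels do tie regions of both classes in sections 2, 3 and 6 of embryo 2, and the fit with section as a block uses them. The count of 977 called genes (777 higher, 200 lower) stayed within 1.5 times under a pseudocount of 0.1, both other filters, the detected-gene covariate and TBXT limits of 5 and 20 TPM. Quantile normalisation gave 483 higher and 570 lower, rescaling without mitochondrially encoded genes 447 and 438, and section as a block 116 in all (109 and 7). Means per embryo and class gave 338 (274 and 64), and means per section and class 113 lower. TBXT-high against all other disc regions gave 531 (472 and 59), and a slope on log2(TBXT + 1) 553 (479 and 74). Without embryo 1 the counts were 302 (247 and 55), and without embryo 2 they were 197 (178 and 19). Leaving out each section or region in turn gave 274 to 1454 in all, 215 to 1248 higher and 59 to 304 lower. The lowest were without section 4 of embryo 1 (274, with 215 and 59), and the most higher calls came without section 1 of embryo 2 (1248). Without section 6 of embryo 2 the count was 536 (396 higher), and without section 4 sector 2 of embryo 1 it was 584 (469 and 115). Without section 1 sector 1 of embryo 2 it was 835 (703 and 132), and without section 1 sector 2 of embryo 2 it was 1450 (1146 and 304). The embryo difference had 5 calls at a pseudocount of 0.1 against 21, and the within-section contrast 66 after quantile normalisation against 116.

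Of 82 called named genes, 62 kept the call with each region left out and 41 with each section or region left out; 39 lost it without section 4 of embryo 1 and 69 within sections. FGF17, KHDC3L and MIXL1 kept it in all 51 alternatives. MSGN1 was listed at 0 in every region of embryo 1 that was compared, so its difference is 0 without embryo 2. Signs turned for SNAI2 (-0.43 against all other disc regions, -0.012 per unit of the slope), CDH1 (0.20 and 0.011 likewise), OTX2 (-0.12) and NANOG (0.27) within sections, and TFAP2A (0.098 without section 6 of embryo 2, the highest with a section or region left out, the lowest being -0.71), none of which passed there. Leaving out each region and keeping the intermediate class were added after seeing the data, as was the matrix-rich comparison. The depth behind a TPM is unknown, so low levels and zeros carry no detection limit.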
